A study of Mus musculus with 16 samples.

Results

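Annexins are proteins that bind phospholipid membranes when calcium rises. Each is built from a conserved core of repeats with a variable amino-terminal tail, and several bind small calcium-binding proteins of the S100 and EF-hand families through that tail. They take part in membrane repair, vesicle traffic, plasminogen activation at the cell surface and the control of phospholipase activity. The 8 annexin genes described here, *Anxa1*, *Anxa2*, *Anxa3*, *Anxa4*, *Anxa5*, *Anxa6*, *Anxa7* and *Anxa11*, were taken by symbol from an expression table of 30386 genes. The family was selected on measured values of this table, the levels of *Anxa6* by transgene and replicate number, so the levels and fold changes of the members below are a description and carry no p-value.

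The cells were neural stem/progenitor cell (NSPC) lines from the subventricular zone of C57BL/6J/Babr mice of 3 months of age, grown as non-adherent cultures with EGF and FGF2. *GFP*-NSPCs (n = 8) carried the pTP6-hrGFP plasmid and *Dbx2*-NSPCs (n = 8) the pTP6-Dbx2 plasmid, and both had been selected with puromycin, so that each transgene was expressed constitutively in lines that had passed selection. RNA of whole cultures was sequenced with a kit that reads the end of each poly-A transcript, and the values are CPM, reads scaled to the total of the sample, which were not divided by transcript length. In bulk samples, fewer cells that express a gene and less RNA of it per cell cannot be told apart.

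In both groups the labels carry replicate numbers from 1 to 8, and the comparison was made over all 16 samples and within numbers 1 to 4 and numbers 5 to 8 (n = 4 per group in each set). The labels do not say which line a sample came from, so the sets are called by their numbers only, and a set cannot be told apart from a line. By the study's methods the samples came from 2 pairs of lines, each pair from a derivation of its own and grown in 4 experiments. The 8 samples of a group are thus repeat cultures of 2 lines. A p-value within a set, or for the difference between the sets, measures the spread between cultures of the same set and transgene. The main fit over all 16 samples had no term for the set, so its spread also holds the difference between the sets. None of these p-values takes independently derived lines as the unit of replication. A sample held 1803928 to 3293285 reads, and 3 reads, the floor used here, were worth 0.911 to 1.66 CPM. Floors and intervals on reads cover counting error only. All 8 NSPC markers looked up, among them *Nes*, *Sox2* and *Egfr*, passed the filter on low values. Their sums were lower in *Dbx2*-NSPCs with no overlap in either set. They were 3956 to 4746 CPM in *GFP*-NSPCs against 3213 to 3651 CPM in *Dbx2*-NSPCs in numbers 1 to 4. In numbers 5 to 8 they were 4780 to 5187 against 3714 to 4163 CPM. Of the microglial markers, 0 of 5 passed the filter, with *Aif1* and *Tmem119* at 0 in all samples and a sum of at most 1.96 CPM. Of the pericyte and fibroblast markers 0 of 5 passed, with a sum of at most 3.42 CPM, and of the endothelial markers 1 of 4, with *Cldn5* and *Cdh5* at 0 and a sum of at most 8.08 CPM. Other lists were also detected at levels that varied between the groups. The 3 astrocyte markers all passed, with sums of 271 to 387 CPM in *GFP*-NSPCs 1 to 4 against 158 to 215 CPM in *Dbx2*-NSPCs, and of 153 to 231 against 97.2 to 155 CPM in numbers 5 to 8. The 4 neuronal markers all passed, with sums of 11.7 to 35.5 against 11.8 to 17.9 CPM in numbers 1 to 4 and of 13.9 to 24.6 against 27.5 to 40.2 CPM in numbers 5 to 8. Of the 4 ependymal and choroid plexus markers 3 passed, with *Tmem212* at 0, and their sums were 9.66 to 21.4 against 14.4 to 73.5 CPM in numbers 1 to 4 and 9.56 to 29.6 against 19.4 to 37.9 CPM in numbers 5 to 8. Of the 4 oligodendrocyte markers 1 passed, with *Mog* at 0, and their sums were 0.35 to 0.8 against 0.96 to 3.64 CPM in numbers 1 to 4 and 0 to 0.34 against 2.82 to 4.97 CPM in numbers 5 to 8. The part of these cell types in the results below was not tested. In numbers 1 to 4 *Dbx2* itself averaged 120.4 ± 35.6 CPM with the *GFP* transgene against 173 ± 41.4 CPM with the *Dbx2* transgene, and in numbers 5 to 8 the averages were 34.0 ± 3.96 and 136 ± 16.9 CPM (SD, n = 4). Its log2 fold change was 1.26 (SE 0.317, limma adjusted p = 0.00978) over all 16 samples. Within the sets it was 0.54 (limma adjusted p = 0.0891) in numbers 1 to 4 and 1.99 (adjusted p = 5.67e-08) in numbers 5 to 8. The difference between the folds of the sets was 1.45 (SE 0.234, adjusted p = 1.04e-04). The kit reads transcript ends, and how reads of the transgene transcript were assigned is not given in the sources used here.

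Of the 8 members, 6 had more than 1 CPM in at least 4 samples and were fitted together with the other genes. *Anxa1* was not fitted, with 10 reads over the 16 samples, and *Anxa11* was listed at 0 in every sample. *Anxa5* had 3507 reads in total, *Anxa3* 1790 and *Anxa6* 6326, whereas *Anxa2* had 233, *Anxa7* 81 and *Anxa4* 69. Fold changes of the last group therefore rest on few reads.

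The sequences just before the RefSeq start of a few of these genes are shown for *Anxa2* and the annexin-binding gene *S100a11*, which moved in opposite directions in the number sets, and for *Anxa5*, the member with the most even level. They were picked with these values known. The RefSeq promoter table (GRCm38.p6) matched 6 of the 8 members, and it has no entry for *Anxa6*, *Anxa3* or *S100a10*. The 250 bases before the start are given 5′ to 3′ on the strand of the gene, at chr9:69453433-69453682 (plus strand) for *Anxa2*, chr3:93520246-93520495 (plus) for *S100a11* and chr3:36475888-36476137 (minus) for *Anxa5*. Capitals mark the matches of an AP-1 site, whose letters were TGANTCA, where N is any base, or of a GC box, searched for as the letters GGGCGG on both strands of the window. Also searched in this way were a box for the factor NF-Y with the letters CCAAT, a core bound by many homeodomain proteins with the letters TAATTA, and a site of the TEAD family with the letters GGAATG.

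Anxa2: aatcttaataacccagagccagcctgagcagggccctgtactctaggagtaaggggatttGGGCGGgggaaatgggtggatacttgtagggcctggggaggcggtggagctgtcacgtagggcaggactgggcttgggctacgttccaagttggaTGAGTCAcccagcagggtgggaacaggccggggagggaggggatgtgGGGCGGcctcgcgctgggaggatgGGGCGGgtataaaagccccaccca

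S100a11: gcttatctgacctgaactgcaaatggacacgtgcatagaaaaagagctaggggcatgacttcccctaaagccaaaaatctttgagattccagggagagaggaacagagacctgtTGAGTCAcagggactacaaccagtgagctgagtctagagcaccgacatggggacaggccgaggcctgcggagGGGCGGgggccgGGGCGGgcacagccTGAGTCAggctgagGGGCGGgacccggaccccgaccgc

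Anxa5: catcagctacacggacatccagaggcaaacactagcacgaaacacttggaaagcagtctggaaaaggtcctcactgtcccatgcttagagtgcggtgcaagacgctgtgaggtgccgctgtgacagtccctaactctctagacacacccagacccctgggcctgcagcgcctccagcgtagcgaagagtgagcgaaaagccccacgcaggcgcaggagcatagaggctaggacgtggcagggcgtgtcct

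*Anxa2* had 1 AP-1 match and 3 GC boxes, and *S100a11* had 2 AP-1 matches and 3 GC boxes, none of which overlapped. No searched motif was in the *Anxa5* window, which held 13 CG dinucleotides against 9 for *Anxa2* and 11 for *S100a11*. Of the 32817 windows of this length in the table, 6.75% held the AP-1 letters and 32.7% the GC box letters. Neither *Anxa4* window nor that of *Anxa5* held a searched motif, *Anxa1* had 1 TEAD match, the 2 *Anxa7* windows had 1 and 4 GC boxes, and *Anxa11*, which had no reads, had 3. The matches describe the letters only, and nothing is read from them about how the genes moved.

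*Anxa6* (ENSMUSG00000018340), which lies on the minus strand of chromosome 11 from 54979108 to 55033445 (GRCm38), is the annexin with a duplicated core. Its longest coding sequence is 2019 bases, against 957 to 1509 bases for the other members, and no annotated gene overlaps it. In *GFP*-NSPCs numbered 1 to 4 its level was 2.42, 1.06, 1.95 and 1.33 CPM, and in *Dbx2*-NSPCs of the same numbers 1.93, 0.61, 1.95 and 1.08 CPM. In *GFP*-NSPCs numbered 5 to 8 it was 460.47, 432.78, 440.55 and 485.68 CPM, and in *Dbx2*-NSPCs 137.62, 154.69, 142.66 and 125.6 CPM. *Anxa6* was thus near the floor in all samples numbered 1 to 4, where the transgene groups overlapped, and abundant in all samples numbered 5 to 8, where every *Dbx2*-NSPC sample was below every *GFP*-NSPC sample. The means there were 455 ± 23.6 CPM with the *GFP* and 140.1 ± 12.1 CPM with the *Dbx2* transgene (SD, n = 4), a log2 fold change of -1.70 (SE 0.0798).

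**Figure D1:**
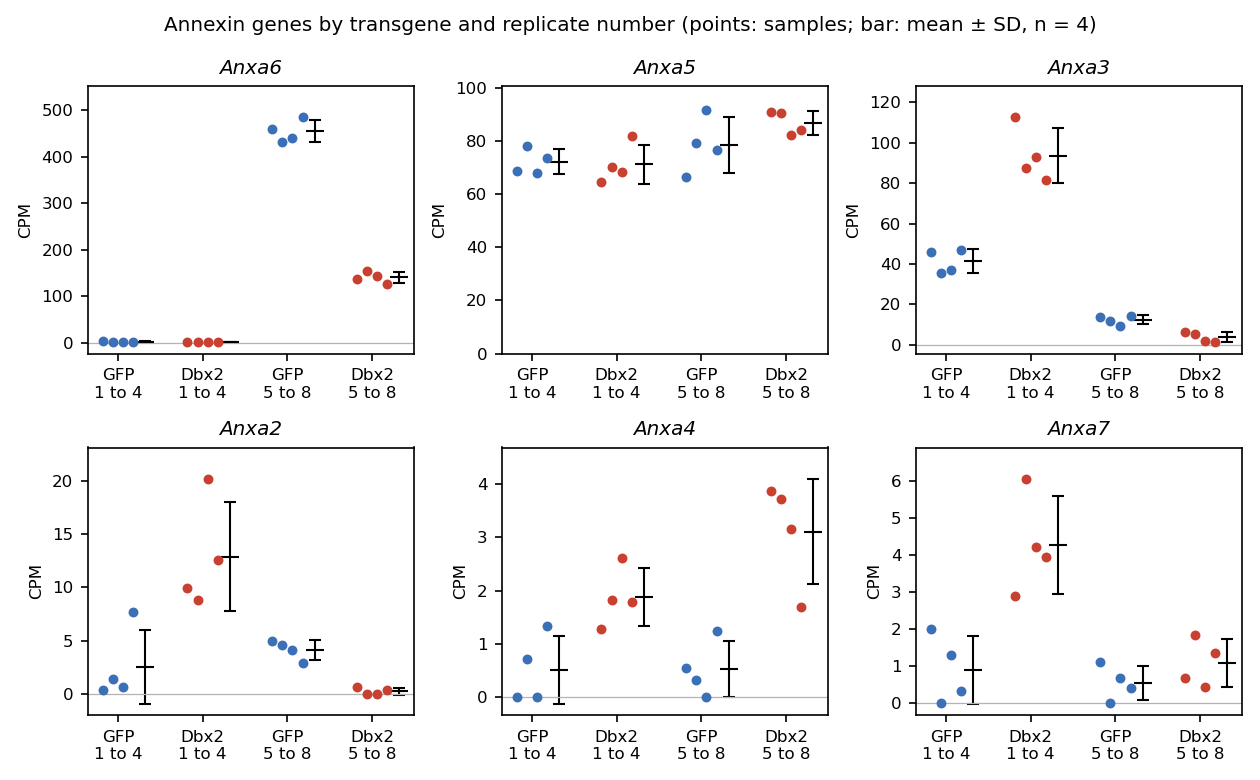
Level of 6 annexin genes in CPM (y axis, own scale per gene) for *GFP*-NSPCs (blue) and *Dbx2*-NSPCs (red), with samples numbered 1 to 4 and 5 to 8 apart (points, samples; bars, mean ± SD, n = 4). *Anxa6* is at 432.78 to 485.68 CPM in *GFP*-NSPCs 5 to 8 and at most 2.42 CPM in any sample numbered 1 to 4, whereas *Anxa5* stays between 64.53 and 91.87 CPM.

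In numbers 1 to 4 the comparison of *Anxa6* rested on 19 reads in *GFP*-NSPCs and 17 in *Dbx2*-NSPCs. The ratio of *Dbx2*- to *GFP*-NSPCs was 0.831 (exact 95% counting interval 0.406 to 1.69), and the log2 fold change was -0.24 (SE 0.392). In numbers 5 to 8 the *GFP*-NSPCs had 3.22 times the level of *Dbx2*-NSPCs (interval 3.04 to 3.41). Over all 16 samples the log2 fold change of *Anxa6* was -0.97 (SE 1.62), since samples near 0 and samples above 100 CPM were averaged together.

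The contrast between the sets was far larger than that between the transgenes. In *GFP*-NSPCs the samples numbered 5 to 8 had 271 times the *Anxa6* level of those numbered 1 to 4 (4713 against 19 reads, interval 173 to 450), and in *Dbx2*-NSPCs 101 times (1577 against 17 reads, interval 63.0 to 174). On the log2 scale these differences were 7.74 and 6.29. Among the 12533 genes fitted, the difference of 7.74 ranked 1 by size in *GFP*-NSPCs and that of 6.29 ranked 5 in *Dbx2*-NSPCs, where 95% of genes differed by less than 1.64 and 1.32 in size. The sets share no samples, but each holds all samples of its numbers, so this order is a description of the sets as labelled.

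None of the 5 fitted genes on each side of *Anxa6* was higher in numbers 5 to 8 by more than 0.46 on the log2 scale. In the direction of lower coordinates the nearest fitted gene was *Tnip1*, 16.2 kb away, which encodes an inhibitor of NF-kB signalling, with a difference of 0.40 for *GFP*-NSPCs, and of -0.11 for *Dbx2*-NSPCs. On the other side it was *Gm2a*, 64.7 kb away, the activator of lysosomal ganglioside breakdown, with -2.02 and -0.73. *Gm2a* was thus lower in the samples where *Anxa6* was higher, at 208 ± 34.7 CPM in *GFP*-NSPCs 1 to 4 and 51.4 ± 11.9 CPM in *GFP*-NSPCs 5 to 8 (SD, n = 4). Beyond these, *Gpx3*, an extracellular glutathione peroxidase, was at -1.55 and -1.65 from at most 1.51 CPM on average. The other 7 neighbours, *Cdc42se2*, *Lyrm7*, *Hint1*, *Slc36a1*, *Sparc*, *Atox1* and *G3bp1*, lay between -0.95 and 0.46.

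**Figure D2:**
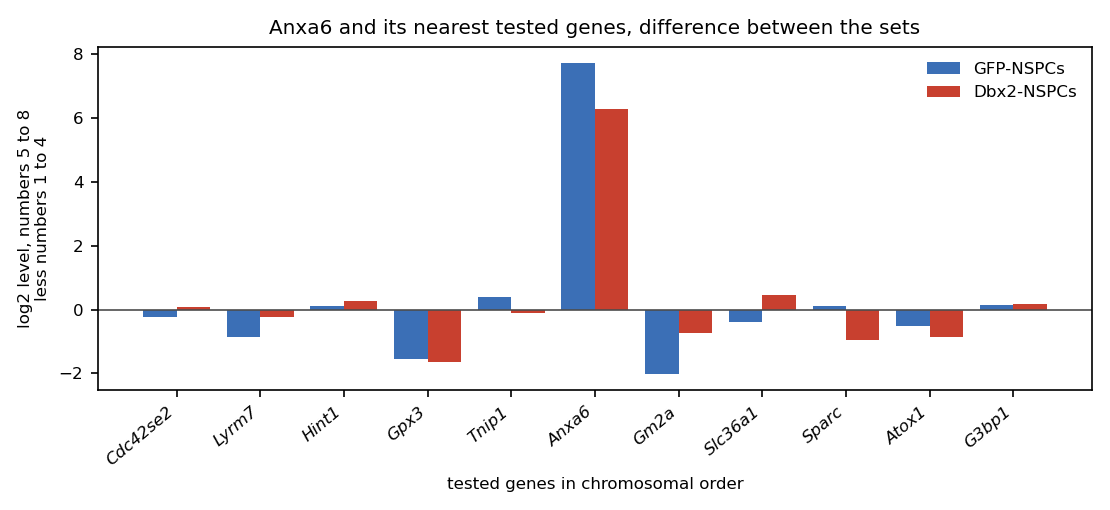
Difference of the mean log2(CPM + 0.5) between samples numbered 5 to 8 and 1 to 4 (y axis) for *Anxa6* and the 5 fitted genes on each side of it in chromosomal order (x axis), in *GFP*-NSPCs (blue) and *Dbx2*-NSPCs (red). The bars of *Anxa6* reach 7.74 and 6.29, and those of its neighbours lie between -2.02 and 0.46.

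Across all 16 samples, the genes with the pattern most like *Anxa6* were searched for by the root mean square difference in log2(CPM + 0.5), after removing the mean of each gene. The nearest was *Otx2*, a homeobox gene of the forebrain and midbrain, at 0.976. In *GFP*-NSPCs it was at 0.0825 ± 0.165 CPM in numbers 1 to 4 and 32.9 ± 5.17 CPM in numbers 5 to 8, and in *Dbx2*-NSPCs at 0.17 ± 0.197 and 16.9 ± 1.36 CPM (SD, n = 4). It was followed by the gap junction gene *Gjc1* at 1.52, *Scrn1* at 1.69 and the homeobox gene *En2* at 1.86. For scale, the root mean square of *Anxa6* about its own mean was 3.57. These 4 genes were at most 2.55 CPM on average in either group of numbers 1 to 4, and at least 12.9 CPM in either group of numbers 5 to 8. The samples share libraries across all genes, so this likeness is a description.

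*Anxa5* (chromosome 3, 36448923 to 36475894), which binds phosphatidylserine and is widely used as a probe for dying cells, varied least. *GFP*-NSPCs 1 to 4 had 68.89, 78.3, 68.1 and 73.65 CPM, and *Dbx2*-NSPCs 1 to 4 had 64.53, 70.11, 68.38 and 81.81 CPM. In numbers 5 to 8 the levels of *GFP*-NSPCs were 66.49, 79.13, 91.87 and 76.49 CPM, and those of *Dbx2*-NSPCs 90.81, 90.7, 82.16 and 84.07 CPM. The groups overlapped in both sets, and the sets overlapped with each other. Its log2 fold change was 0.07 (SE 0.0930) over all samples, -0.02 (SE 0.112) in numbers 1 to 4 and 0.15 (SE 0.105) in numbers 5 to 8.

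*Anxa3* (chromosome 5, 96793339 to 96845966), also known as lipocortin III, moved in opposite directions in the sets. In *GFP*-NSPCs 1 to 4 it was at 45.93, 35.27, 37.14 and 46.99 CPM, and in *Dbx2*-NSPCs 1 to 4 at 112.69, 87.71, 92.8 and 81.45 CPM. In *GFP*-NSPCs 5 to 8 it was at 13.85, 11.96, 9.22 and 14.39 CPM, and in *Dbx2*-NSPCs 5 to 8 at 6.34, 5.28, 1.81 and 1.35 CPM. All *Dbx2*-NSPC samples were above all *GFP*-NSPC samples in numbers 1 to 4 and below them in numbers 5 to 8. The log2 fold changes were 1.17 (SE 0.141) and -1.81 (SE 0.396), which differed by -2.99 (SE 0.415). Over the 16 samples they cancelled to -0.32 (SE 0.835) in limma, and to 0.89 in edgeR, which works on the mean of the reads.

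*Anxa2* (chromosome 9, 69453620 to 69491795), which forms a complex with S100a10 at the plasma membrane and assembles plasminogen and its activator there, had the same pattern at a lower level. *GFP*-NSPCs 1 to 4 had 0.4, 1.41, 0.65 and 7.66 CPM, and *Dbx2*-NSPCs 1 to 4 had 9.95, 8.8, 20.19 and 12.56 CPM. The 4th *GFP*-NSPC sample stood apart from the other samples of its set and yet below the lowest *Dbx2*-NSPC sample. In numbers 5 to 8 the *GFP*-NSPC samples had 4.99, 4.6, 4.1 and 2.88 CPM of *Anxa2* and the *Dbx2*-NSPC samples 0.7, 0, 0 and 0.34 CPM, so that all *Dbx2*-NSPC samples were at or under the floor. The summed reads there were 43 against 3, a ratio of *GFP*- to *Dbx2*-NSPCs of 15.4 (interval 4.94 to 77.8). The log2 fold changes were 2.67 (SE 0.586) in numbers 1 to 4 and -2.69 (SE 0.393) in numbers 5 to 8, with a difference of -5.36 (SE 0.716). The fitted values of so low a gene depend on the pseudocount, and the difference ran from -7.18 with 0.1 to -3.35 with 2 in its place. Over the 16 samples the log2 fold change was -0.01 (SE 0.790) in limma and 1.02 in edgeR.

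*Anxa4* and *Anxa7* were low, and in both sets their mean was higher in *Dbx2*-NSPCs. *Anxa4* (chromosome 6, 86736840 to 86793584), a membrane-binding annexin known mostly from epithelia, was at 0, 0.71, 0, 1.33, 0.55, 0.31, 0 and 1.23 CPM in *GFP*-NSPCs 1 to 8. In *Dbx2*-NSPCs 1 to 8 it was at 1.28, 1.82, 2.61, 1.79, 3.87, 3.73, 3.16 and 1.69 CPM. Only the lowest *Dbx2*-NSPC sample and the highest *GFP*-NSPC sample, both of numbers 1 to 4, crossed. The summed reads were 58 against 11, a ratio of 4.89 (interval 2.54 to 10.3), and the log2 fold change over 16 samples was 1.67 (SE 0.345), with 1.43 (SE 0.480) in numbers 1 to 4 and 1.91 (SE 0.432) in numbers 5 to 8. With a pseudocount of 0.1 or 2 in place of 0.5, the fold change over 16 samples was 2.69 or 0.83, that of numbers 1 to 4 was 2.55 or 0.65, and that of numbers 5 to 8 was 2.82 or 1.02. The end of *Anxa4* overlaps the lincRNA gene *Gm44036* on the other strand, which was at 4.08 CPM in total over the 16 samples, and whether the reads were counted by strand is not given in the sources used here.

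*Anxa7* (chromosome 14, 20455260 to 20480133), also called synexin, which aggregates secretory granules, was at 2.01, 0, 1.3, 0.33, 1.11, 0, 0.68 and 0.41 CPM in *GFP*-NSPCs 1 to 8. In *Dbx2*-NSPCs 1 to 8 it was at 2.89, 6.07, 4.23, 3.95, 0.7, 1.86, 0.45 and 1.35 CPM. The groups did not overlap in numbers 1 to 4 and overlapped in numbers 5 to 8. Its read ratio was 4.92 (53 against 10 reads, interval 2.48 to 10.8) in numbers 1 to 4 and 2.41 (13 against 5 reads, interval 0.807 to 8.64) in numbers 5 to 8. The log2 fold change was 1.31 (SE 0.442) over all samples, 1.99 (SE 0.496) in numbers 1 to 4 and 0.63 (SE 0.461) in numbers 5 to 8. The value of numbers 1 to 4 was 2.83 with a pseudocount of 0.1 and 1.14 with 2.

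*Anxa1*, a glucocorticoid-induced inhibitor of inflammation that acts through formyl peptide receptors, had 9 reads in all *Dbx2*-NSPC samples together against 1 in *GFP*-NSPCs, and never more than 3 reads in a sample, so no fold is given. The receptor genes *Fpr1*, *Fpr2* and *Fpr3* were at 0 in all samples. For *Anxa11*, an RNA granule adaptor that binds S100a6, 0 reads of 45295840 allow a level of up to 0.0662 CPM over the samples together. This limit covers counting error only. How the reads were counted is not given in the sources used here, so 0 reads need not mean that the gene was silent. Of the other annexin genes in the table, *Anxa8* had 1 read and *Anxa10* had 0. *Anxa9* had 43 reads and a log2 fold change of 0.77 (SE 0.411, limma adjusted p = 0.224), and its end overlaps *Mindy1* on the other strand.

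**Figure D3:**
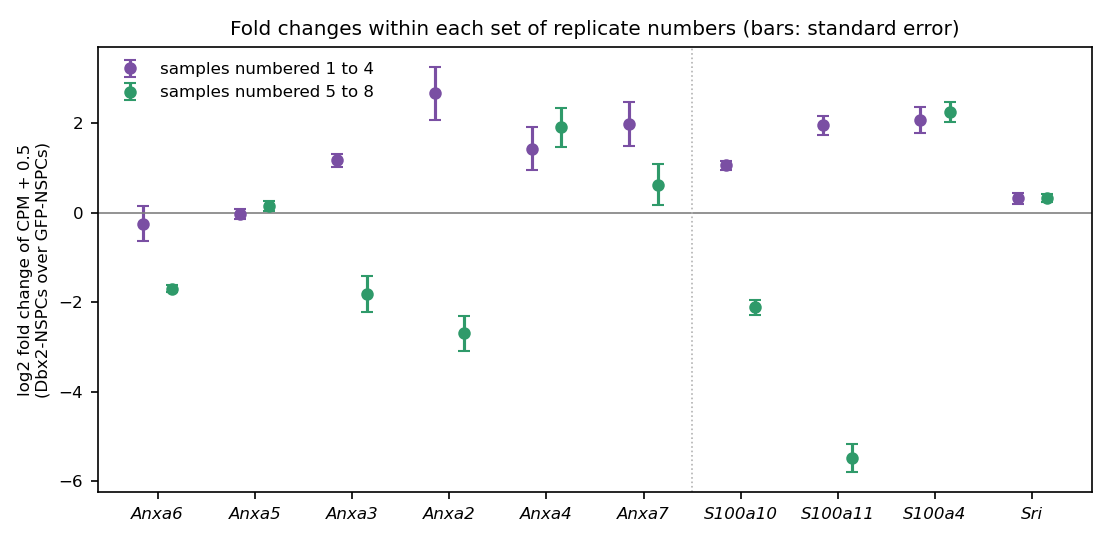
Log2 fold change of *Dbx2*-NSPCs over *GFP*-NSPCs (y axis, on CPM + 0.5) for 6 annexins and 4 partner genes (x axis) in samples numbered 1 to 4 (purple) and 5 to 8 (green), with bars for the standard error. *Anxa3* (1.17 and -1.81), *Anxa2* (2.67 and -2.69), *S100a10* and *S100a11* lie on opposite sides of 0, whereas *Anxa4*, *S100a4* and *Sri* lie above 0 in both sets.

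By the limma threshold, 2 members (*Anxa4* and *Anxa7*, both higher) passed over all 16 samples, where 15.8% of all fitted genes did (8.03% higher and 7.78% lower). In numbers 1 to 4, 3 members passed (*Anxa2*, *Anxa3* and *Anxa7*, all higher), beside 15.6% of all genes (8.19% higher, 7.37% lower), and in numbers 5 to 8, 4 passed (*Anxa4* higher, *Anxa2*, *Anxa3* and *Anxa6* lower), beside 23.2% (11.5% higher, 11.7% lower). The difference between the folds passed for *Anxa2*, *Anxa3* and *Anxa6*, each lower in numbers 5 to 8, beside 9.44% (4.4% higher, 5.04% lower). Because the family was picked with this contrast known, nothing is read from these counts. With the replicate number as a block, *Anxa4* and *Anxa6* passed over all samples and *Anxa7* did not, and with a term for the number set *Anxa4*, *Anxa6* and *Anxa7* passed. The groups did not overlap for 3 members in numbers 1 to 4, all higher (19.6% of all genes, 9.53% higher and 10% lower), for 4 in numbers 5 to 8 (24.8%, 12.2% higher and 12.6% lower) and for 0 members over all 16 samples (3.41%). A split in both sets with opposite directions was seen for *Anxa2* and *Anxa3* and for 183 fitted genes, or 1.46%. The same 2 members passed the threshold in both sets with opposite signs, as did 1.47% of all genes. With no filter on low values, neither *Anxa2* nor *Anxa3* passed in both sets. The median log2 fold change of the 6 fitted members was 1.30 in numbers 1 to 4 and -0.77 in numbers 5 to 8, beside -0.04 and -0.01 over all genes.

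Because these patterns differed, the annexin with the most reads was not the same in each set. In *GFP*-NSPCs 1 to 4 the order was *Anxa5*, *Anxa3* and *Anxa2*, then *Anxa6*, *Anxa7* and *Anxa4*, with *Anxa2* and all genes after it overlapping their neighbours in the order. In *Dbx2*-NSPCs 1 to 4 *Anxa3* (93.7 ± 13.5 CPM) stood first and touched the range of *Anxa5* (71.2 ± 7.44 CPM), followed by *Anxa2*, *Anxa7*, *Anxa4* and *Anxa6*. In both groups of numbers 5 to 8 *Anxa6* came first and *Anxa5* next, with no overlap between them. Below *Anxa3*, *GFP*-NSPCs 5 to 8 had *Anxa2* next at 4.14 ± 0.917 CPM, whereas in *Dbx2*-NSPCs 5 to 8 *Anxa2* had the lowest mean of the members with any read, at 0.26 ± 0.334 CPM (SD, n = 4). These levels are per read of the transcript end, not per length.

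*Anxa6* held 0.906% to 2.02% of the annexin reads in *GFP*-NSPCs 1 to 4, 0.346% to 1.03% in *Dbx2*-NSPCs 1 to 4, 80.6% to 84.1% in *GFP*-NSPCs 5 to 8 and 57.2% to 61.6% in *Dbx2*-NSPCs 5 to 8. The summed annexin level followed *Anxa6* in numbers 5 to 8, at 551 ± 22.0 CPM with the *GFP* and 236 ± 17.6 CPM with the *Dbx2* transgene (SD, n = 4). Without *Anxa6* the sums in numbers 5 to 8 were 96.2 ± 7.71 and 95.8 ± 7.87 CPM. Most of these sums was *Anxa5*, whose groups overlapped, at 78.5 ± 10.4 and 86.9 ± 4.48 CPM. The level sum therefore says little about the lower paralogs. In numbers 1 to 4 the sum without *Anxa6* was 118 ± 9.40 CPM against 184 ± 7.35 CPM in *Dbx2*-NSPCs (SD, n = 4), and most of the difference was *Anxa3*.

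**Figure D4:**
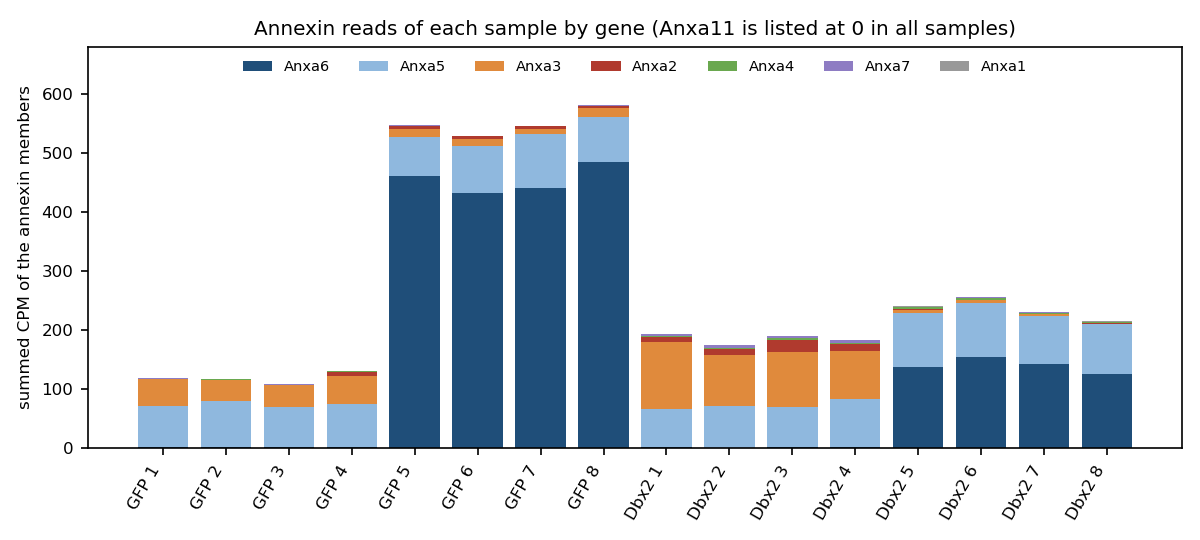
Summed level of the annexin members in CPM (y axis) in each of the 16 samples (x axis), with each gene as a stacked segment. The bars of *GFP*-NSPCs 5 to 8 reach 528.78 to 581.49 CPM and consist mostly of *Anxa6*, and the bars of *Dbx2*-NSPCs 1 to 4 reach 175.42 to 193.27 CPM with a large *Anxa3* segment.

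A list of 41 partners and other calcium-dependent lipid-binding genes was looked up beside the annexins, and 22 of them were fitted. The list was chosen with earlier results of these data known. The p-values of its genes below are therefore not those of genes picked beforehand. Over all 16 samples 4 passed the limma threshold, all of them higher in *Dbx2*-NSPCs, beside 8.03% of all genes that were higher, and the list's median log2 fold change was 0.04. In numbers 1 to 4, 5 were higher and 1 lower, beside 8.19% and 7.37% of all genes, and in numbers 5 to 8, 3 were higher and 4 lower, beside 11.5% and 11.7%. The fold changes of the sets differed for 5 genes, beside 9.44% of all genes, and 4 of them were shifted down in numbers 5 to 8 relative to numbers 1 to 4.

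Of the genes for S100 proteins that bind annexins, *S100a10* and *S100a11* gave the largest of these differences. *S100a10*, the S100 partner of *Anxa2* (chromosome 3, 93555080 to 93564643), had 80.17, 70.19, 72.01 and 86.64 CPM in *GFP*-NSPCs 1 to 4 and 157, 164.8, 171.61 and 152.13 CPM in *Dbx2*-NSPCs 1 to 4. In numbers 5 to 8 the *GFP*-NSPC levels were 80.9, 74.84, 74.45 and 76.08 CPM and the *Dbx2*-NSPC levels 22.17, 18.02, 18.51 and 12.15 CPM. *GFP*-NSPCs were thus alike in the sets, and *Dbx2*-NSPCs lay entirely above them in numbers 1 to 4 and entirely below in numbers 5 to 8. The log2 fold change was 1.06 (SE 0.102, limma adjusted p = 4.40e-05) in numbers 1 to 4 and -2.11 (SE 0.161, adjusted p = 5.10e-07) in numbers 5 to 8, and these differed by -3.17 (SE 0.193, adjusted p = 2.38e-11).

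*S100a11*, the S100 partner of *Anxa1*, lies 28.8 kb from *S100a10* and moved the same way. The levels were 19.74, 15.17, 16.62 and 11.33 CPM for *GFP*-NSPCs 1 to 4, and 41.42, 67.07, 69.03 and 73.56 CPM for *Dbx2*-NSPCs 1 to 4. In numbers 5 to 8 they were 28.81, 22.08, 19.12 and 31.67 CPM for *GFP*-NSPCs, and 0.35, 0, 0 and 0 CPM for *Dbx2*-NSPCs. A gene that rose in every *Dbx2*-NSPC sample of one set was thus left with 1 read in the other. The reads in numbers 5 to 8 were 257 against 1, a ratio of 277 (interval 49.3 to 10983). Its log2 fold changes were 1.96 (SE 0.215, limma adjusted p = 1.11e-04) and -5.48 (SE 0.318, adjusted p = 5.28e-08), with a difference of -7.43 (SE 0.368, adjusted p = 6.09e-13) whose size depends on the pseudocount. Over all 16 samples neither gene passed, with log2 fold changes of -0.52 (SE 0.522, adjusted p = 0.550) for *S100a10* and -1.76 (SE 1.11, adjusted p = 0.311) for *S100a11*, and edgeR gave the other sign, 0.26 and 0.67.

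**Figure D5:**
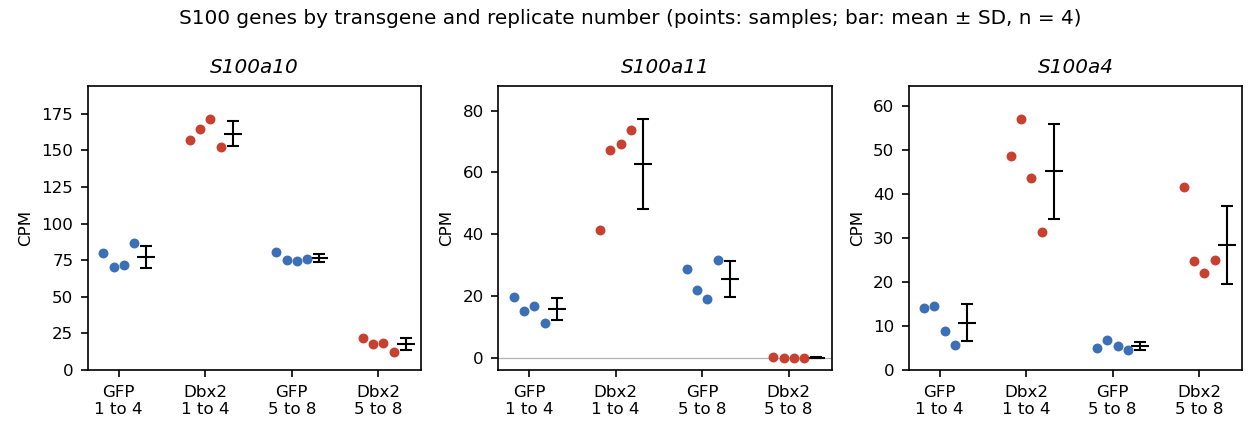
Level of *S100a10*, *S100a11* and *S100a4* in CPM (y axis, own scale per gene) by transgene and number set (points, samples; bars, mean ± SD, n = 4). *S100a10* and *S100a11* in *Dbx2*-NSPCs (red) are above *GFP*-NSPCs (blue) in numbers 1 to 4 and below them in numbers 5 to 8, and *S100a4* is above in both.

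*S100a4*, which also binds *Anxa2* and regulates non-muscle myosin, was higher in both sets. It was at 14.1, 14.46, 8.8, 5.67, 4.99, 6.75, 5.46 and 4.52 CPM in *GFP*-NSPCs 1 to 8 and at 48.48, 57.06, 43.63, 31.22, 41.53, 24.85, 22.12 and 24.99 CPM in *Dbx2*-NSPCs 1 to 8. The groups did not overlap over the 16 samples, which held for 3.41% of all genes (1.6% higher, 1.81% lower). The log2 fold change was 2.16 (SE 0.259, limma adjusted p = 1.13e-05), and the folds of the sets differed by 0.18 (SE 0.373, adjusted p = 0.840). *S100a6*, the partner of *Anxa11*, had at most 2.53 CPM on average in any group of a set and a log2 fold change of 0.06 (SE 0.580, adjusted p = 0.960). Its highest value, 7.33 CPM, was in the 4th *GFP*-NSPC sample, the sample in which *Anxa2* also stood apart.

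Among the EF-hand partners, *Sri*, which encodes sorcin and binds *Anxa7*, averaged 86.9 ± 5.85 CPM against 109.7 ± 17.1 CPM in *Dbx2*-NSPCs for numbers 1 to 4, and 84.7 ± 6.61 against 107 ± 10.6 CPM for numbers 5 to 8 (SD, n = 4). It rose by 0.33 on the log2 scale (SE 0.0831, limma adjusted p = 0.0107). *Pdcd6*, which encodes a calcium sensor that binds *Anxa7* and *Anxa11*, had a log2 fold change of -0.05 (SE 0.124, adjusted p = 0.838). Of the calpain genes, *Capn2*, a calcium-dependent protease, rose by 0.35 (SE 0.0956, adjusted p = 0.0161), and the fold of *Capns1*, its regulatory subunit, differed between the sets by -0.49 (SE 0.133, adjusted p = 0.0164). *Capns1* went from 302 ± 21.6 to 404 ± 35.1 CPM in numbers 1 to 4 and from 302 ± 19.0 to 288 ± 31.0 CPM in numbers 5 to 8.

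Copines are another family of calcium-dependent membrane-binding proteins, and 4 of 9 were fitted. *Cpne2* rose by 0.41 over all samples (SE 0.114, limma adjusted p = 0.0176), with no overlap between the groups, as for 3.41% of all genes. Its highest *GFP*-NSPC sample was at 38.68 CPM and its lowest *Dbx2*-NSPC sample at 38.85 CPM. In these samples 1 read was worth 0.403 and 0.304 CPM, more than the gap between them. *Cpne8* had folds that differed between the sets by -0.92 (SE 0.192, adjusted p = 0.00180), from 73.4 ± 12.3 to 85.8 ± 8.49 CPM in numbers 1 to 4 and from 79.8 ± 11.9 to 49.0 ± 5.63 CPM in numbers 5 to 8 (SD, n = 4). The 5 ESCRT genes, whose products close membrane wounds, were all fitted and had log2 fold changes of -0.32 to 0.14 over all samples, with the smallest adjusted p at 0.0850 for *Tsg101*, a gene singled out after its values had been seen. The fitted genes of the remaining lists were *Plat* (0.01, adjusted p = 0.969), which encodes the tissue plasminogen activator, the ferlin *Myof* (-0.17, adjusted p = 0.835) and the extended synaptotagmins *Esyt1* (-0.52, adjusted p = 0.184) and *Esyt2* (0.11, adjusted p = 0.741). *Esyt1* was at -0.14 (limma adjusted p = 0.835) in numbers 1 to 4 and passed, lower, in numbers 5 to 8 (-0.90, adjusted p = 0.0259). The difference between its folds did not pass (adjusted p = 0.353).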

How the data were processed

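RNA of 8 *Dbx2*-NSPC and 8 *GFP*-NSPC samples was sequenced from the 3′ end. Trimming by the authors was with bbduk and alignment to GRCm38 with STAR 2.5.0a, and they deposited CPM for 30386 genes. The counting tool and strand are not given in the sources used here, and 0 columns were left out. Within 0.006 CPM, 100% of values above 0 were whole reads, which set the depths. The 12533 genes over 1 CPM in 4 samples or more were tested with limma 3.58.1 (R 4.3.3, eBayes with trend, 2-sided) on log2(CPM + 0.5), with Benjamini-Hochberg adjustment over all of them and a threshold of 0.05. Fold changes on this scale understate those of low genes. The study's methods add the cell line as a covariate, but the labels do not give it. The alternatives were the count tests of edgeR 4.0.16 and of DESeq2 1.42.0 on recovered reads, another pseudocount, filter or scaling, the replicate block, a term for the number set and leaving out each sample. The fits were tested on simulated counts with the same spread for all genes and no difference between the sets in *GFP*-NSPCs. This test therefore does not cover sets that differ as they do here. Exact 95% intervals are on reads. Positions came from GENCODE M21, which matched 30348 of the genes, and promoter sequences from RefSeq.

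The annexin members and the partner list were chosen with earlier results of these data known. Named by rule were *Dbx2*, the members, the other annexins, the S100 and EF-hand partners, other partners past the threshold that averaged 10 CPM or more in a group, the 5 fitted genes on each side of *Anxa6* and the 5 genes most like it, of which 1 is not reported here.

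The replicate block pairs samples by the replicate numbers of the labels, which do not state a pairing. Deviations of same-numbered samples from their group means correlated at 0.152 to 0.303 over genes (mean 0.226), against 0.199 for other numbers of the same set, and 4 of 8 samples correlated best with their own number. These deviations still hold the difference between the sets. After the set means had been removed, the mean was 0.0403, against -0.0136 for other numbers of the same set. Then 1 of 8 samples correlated best with its own number.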

Additional observations from a re-analysis of the deposited data

Results flagged for a closer look

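*Anxa2* was at 7.66 CPM in the 4th *GFP*-NSPC sample, apart from the other samples of numbers 1 to 4. By the same criterion, 36 groups of 4 or 8 samples were examined, and chance marks about 1 in 20 of them. The fold changes of *Anxa2* differed between the sets by -5.36 on the log2 scale and those of *Anxa3* by -2.99, with every sample of one set moved one way and every sample of the other set the opposite way. Both passed the limma threshold, but the members had been picked with this contrast known, so the differences are a description and are given with no p. By limma's test of the difference between the sets, the log2 fold changes differed by -3.17 for *S100a10*, -7.43 for *S100a11*, -0.92 for *Cpne8* and -0.49 for *Capns1*. They also differed by 2.19 for *Pla2g4a*, a phospholipase A2 gene (SE 0.695, adjusted p = 0.0467), which had at most 3.06 CPM on average in any group of a set and was named after its values had been seen.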

How the results depend on the processing

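Alternatives were run for the counts and for the folds of the 6 fitted members, *S100a10*, *S100a11*, *S100a6*, *Pdcd6* and *Sri* (partners over all samples and in the difference only), and no fold among these that passed the threshold changed sign. The other named partner genes and *Dbx2* were not rerun one by one. Over all 16 samples, 2 members passed, against 1 (*Anxa4*) with a pseudocount of 0.1, 1 with no filter on low values, 1 with eBayes without trend and 0 with only genes that average 10 CPM or more, where neither *Anxa4* nor *Anxa7* is kept. Leaving out single samples gave 1 to 2. *Anxa7* no longer passed without *GFP*-NSPC sample 2, 4, 5, 6, 7 or 8 or without *Dbx2*-NSPC sample 1, 2, 3, 4, 6 or 8, and *Anxa4* passed each time. In numbers 1 to 4, 3 members passed, against 1 (*Anxa3*) with no filter, 1 with that stricter filter and 2 to 3 without single samples. There, *Anxa7* was lost without *GFP*-NSPC sample 4 or *Dbx2*-NSPC sample 2. In numbers 5 to 8, 4 passed, against 3 (*Anxa2*, *Anxa4* and *Anxa6*) with no filter, 2 with the stricter filter and 4 without any single sample. The difference of the folds gave 3 members each time a sample was left out, and 2 (*Anxa3* and *Anxa6*) with the stricter filter. edgeR and DESeq2 called the members that limma called in all 4 comparisons. Of the partner list, 4 genes passed over all samples (4 to 5 without single samples) and 5 in the difference (4 to 5, an alternative chosen after seeing the data).

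With the replicate block, 2723 genes passed over all samples, against 1982 without it, together with 2 members and 4 partner genes. Within the sets the block left 3 and 4 members. Over all samples the block changed the call of none of *S100a10*, *S100a11*, *S100a6*, *Sri* and *Pdcd6*, of which only *Sri* passed. These partner genes were rerun with the block over all samples only, so their calls within the sets were not examined with it. A term for the number set gave 3034 genes, and leaving out single samples 1684 to 2210. Other scalings moved the median log2 fold change of all genes by 0.02. The cause of these shifts was not tested beyond the genes that a filter removes. Depth limits *Anxa1*, *Anxa2*, *Anxa4* and *Anxa7*, whose values lay near the floor of 3 reads in several samples, and *Anxa6* in numbers 1 to 4.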
